A study of Mus musculus with 8 samples.

Results

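The insulin-like growth factor (IGF) system was examined in mouse embryonic fibroblasts (MEFs) and in MEFs treated with 1 of 3 small molecules. The members were the rows of the gene count matrix whose symbol was Igf1, Igf2, Igf1r, Igf2r, Igfbp2, Igfbp3, Igfbp4, Igfbp5, Igfbp6 or Igfbp7, which gave 10 genes of 50578 listed. RNA-seq was performed on 8 libraries in 4 groups of 2. The cells of all groups were primary wild-type C57BL/6J MEFs taken at E13.5 and used between passage 3 and passage 5. The control group was untreated by its label, and whether it received vehicle is not stated. The other groups received 10 µM carbidopa, an inhibitor of aromatic-L-amino-acid decarboxylase, 10 µM LY-364947, an inhibitor of the TGF-beta receptor, or 10 µM CHIR-99021, an inhibitor of the kinase GSK3. The medium was changed every 3 days, and the length of treatment is not stated for the RNA-seq libraries in the sources used here. LY-364947 is spelled LY-364747 in the sample labels. The study sought molecules that turn fibroblasts into hepatic progenitor-like cells, and the labels call the treated cells hepatic-like.

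The IGF ligands Igf1 and Igf2 are secreted growth factors that signal through the receptor tyrosine kinase Igf1r to PI3K and MAPK. Igf2r, the cation-independent mannose 6-phosphate receptor, carries Igf2 to lysosomes for breakdown and does not signal as a kinase. IGF-binding proteins hold the ligands outside the cell and are cut by secreted proteases, which frees the ligand. In liver, hepatocytes are the main source of circulating Igf1 and also make the binding protein Igfbp1 and the acid-labile subunit Igfals, while embryonic mesenchyme makes large amounts of Igf2.

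The libraries held 15039566 to 20504338 counts, of which the 10 members took 0.322% to 0.414%. All 10 members were among the 15154 genes that passed the filter on low counts (30.0% of those listed). Igfbp2 passed it through the MEF libraries alone. Nothing in the labels says that the 2 libraries of a group came from separate cultures, so p-values measure the spread between these samples, which may be technical. The 12 hepatocyte markers summed to 3 and 7 reads in MEFs (0.223 and 0.452 CPM) and 19 to 31 reads in the treated libraries (at most 1.57 CPM), so the sum was higher in the cells labelled hepatic-like but near 0 in every library. Alb had at most 2 reads in MEFs and 5 to 10 in treated libraries, Hnf4a at most 2 and 6 to 10, and Ahsg, Serpina1a and Tat were at 0 in all 8. Apoa2 had 0 and 5 reads in MEFs, 18 and 11 with carbidopa, and 3 to 8 in the other treated libraries. None of the 12 was tested, so these genes are named outside the rule of smallest p given below. The 12 fibroblast markers were detected in every library, at a summed level of 34901 to 35238 CPM in MEFs and 8449 to 11942 CPM in treated cells. Fn1, named after its values were seen, was the largest part of this sum. Its mean was 18975 CPM in MEFs and 2744 to 4870 CPM in the treated groups. CPM are the counts of a gene per 1000000 counts of the library, after TMM scaling of the library sizes. Both carbidopa libraries were labelled alike but lay further apart than the pairs of the other groups, with a chi-square per degree of freedom over genes of 37.9 against 4.57 to 10.0. For the members, results that turn on one of them are given with and without it. Genes of the other lists were not followed with a library left out. The 3 comparisons with MEFs share the same MEF libraries.

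The sequences before the start sites of the 4 members with the widest range between groups are shown first, since these genes carry the largest differences. Each is the 250 bases that precede a start of the gene in RefSeq (GRCm38.p6), 5′ to 3′ on the gene's strand. The spans of the genes given further on come from another annotation, GENCODE, and their ends differ from the RefSeq starts. The Igf1 window lies inside the Igf1 span, so it precedes a downstream start and not the outermost one. All 10 members were found in that table, with 1 window each except Igf2 with 4 and Igfbp2 with 2, of which the first is printed. Capitals mark matches on either strand to 6 motifs, which are the TATA box written TATAAA, the TCF/LEF core written CTTTGA, the GC box written GGGCGG, the AP-1 site written TGANTCA, the SMAD core written CAGAC and the nuclear receptor half-site written AGGTCA.
Igf1, chr10:87860861-87861110, plus strand: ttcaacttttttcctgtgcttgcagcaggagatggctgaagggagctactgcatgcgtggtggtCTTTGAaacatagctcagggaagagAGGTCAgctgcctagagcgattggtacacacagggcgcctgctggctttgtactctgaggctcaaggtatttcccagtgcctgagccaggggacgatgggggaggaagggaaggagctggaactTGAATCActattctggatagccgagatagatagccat
Igfbp2, chr1:72824230-72824479, plus strand: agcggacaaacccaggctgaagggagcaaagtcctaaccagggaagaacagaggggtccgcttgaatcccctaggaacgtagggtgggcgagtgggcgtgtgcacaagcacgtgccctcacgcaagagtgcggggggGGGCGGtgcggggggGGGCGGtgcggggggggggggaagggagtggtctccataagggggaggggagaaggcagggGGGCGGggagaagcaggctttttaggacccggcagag
Igfbp5, chr1:72874866-72875115, minus strand: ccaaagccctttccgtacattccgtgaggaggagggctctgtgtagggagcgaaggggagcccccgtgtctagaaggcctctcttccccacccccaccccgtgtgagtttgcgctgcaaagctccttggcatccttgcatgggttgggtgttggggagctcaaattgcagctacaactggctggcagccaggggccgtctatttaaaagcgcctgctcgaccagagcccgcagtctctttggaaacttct
Igfbp6, chr15:102143936-102144185, plus strand: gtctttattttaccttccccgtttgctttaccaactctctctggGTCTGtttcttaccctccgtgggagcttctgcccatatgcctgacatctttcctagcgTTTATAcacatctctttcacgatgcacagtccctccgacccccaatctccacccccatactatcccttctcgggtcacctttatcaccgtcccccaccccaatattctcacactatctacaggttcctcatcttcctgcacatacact

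The 4 printed windows had little in common. Igf1 held the TCF/LEF core, the half-site and the AP-1 site, Igfbp2 held the GC box 3 times, Igfbp6 held the SMAD core and the TATA box on the opposite strand, and Igfbp5 held none of the 6. No match overlapped another in the 4 printed windows. The second Igfbp2 window, which is not printed, held the SMAD core on the opposite strand, the AP-1 site and no GC box. Among 32851 promoter windows of this length, the TCF/LEF core stood in 13.8%, the half-site in 14.0%, the AP-1 site in 6.75%, the GC box in 32.7%, the SMAD core in 42.2% and the TATA box in 12.4%. G and C made up 49.6% of the Igfbp6 window, 52.8% of Igf1, 58.8% of Igfbp5 and 67.2% of the printed Igfbp2 window. The median over all windows was 52.4%. The matches are letters in a window and were not tested as binding sites.

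The comparisons with MEFs asked which members differed after each treatment. Differences with a Benjamini-Hochberg adjusted p under 0.05 over all genes tested, by edgeR's quasi-likelihood test, were counted as changes. With carbidopa, 2 members were higher and 6 lower of 10, while 37.7% of all genes tested changed (18.0% higher and 19.7% lower). With LY-364947, 2 were higher and 5 lower, beside 31.0% of all genes (13.7% higher and 17.2% lower). With CHIR-99021, 2 were higher and 7 lower, beside 38.8% of all genes (18.7% higher and 20.1% lower). The 2 that rose were Igfbp3 and Igfbp6 in each comparison. The median log2 fold change of the members was -0.64 after carbidopa, -0.56 after LY-364947 and -0.85 after CHIR-99021, and that of all genes was 0.037, 0.028 and 0.043 in the same order. Igfbp2 counts among the lower members each time, and it could pass the filter only by being high in MEFs.

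**Figure D1:**
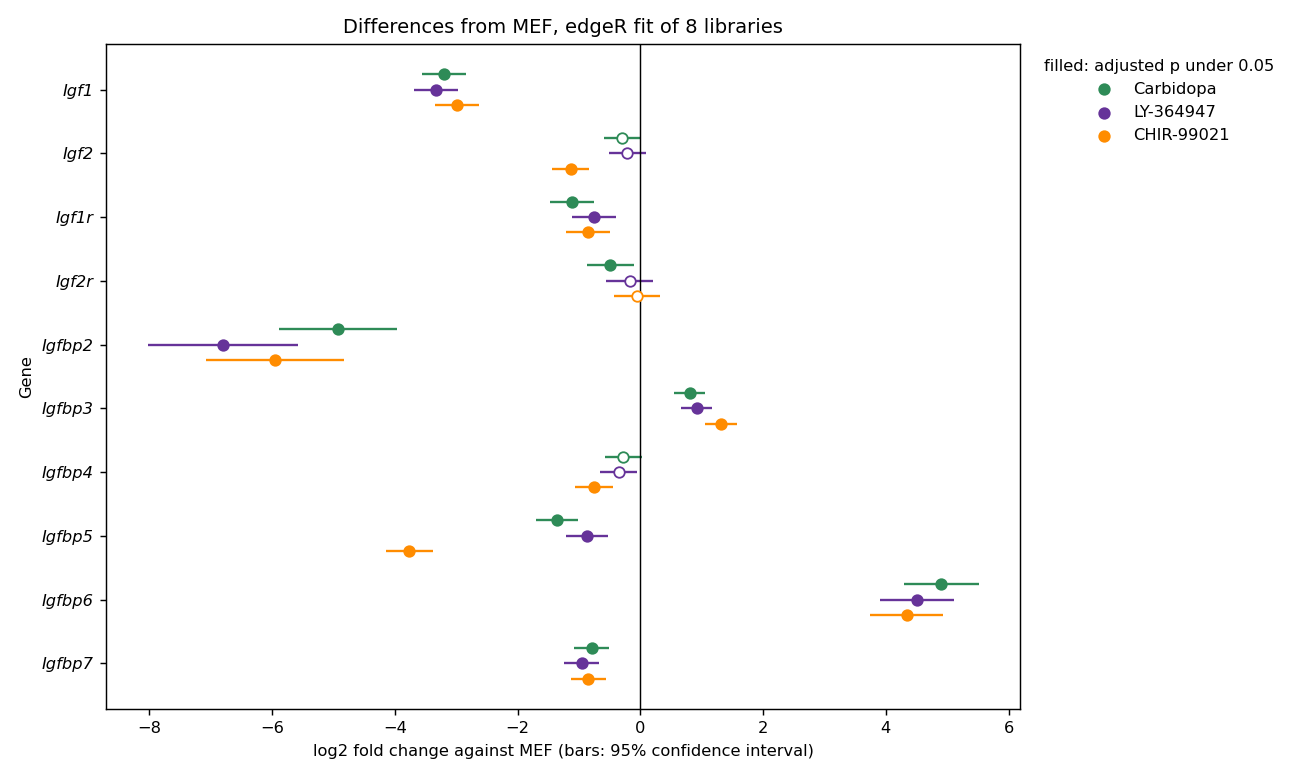
Log2 fold change of each member (vertical axis) after carbidopa, LY-364947 or CHIR-99021 against MEFs (horizontal axis), from the edgeR fit of 8 libraries, with bars for the 95% confidence interval and filled points for an adjusted p under 0.05. Igf1, Igfbp2 and Igfbp5 lie left of 0 and Igfbp3 and Igfbp6 right of 0 for all treatments, and the Igfbp5 point of CHIR-99021 lies far left of the other treatments.

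**Figure D2:**
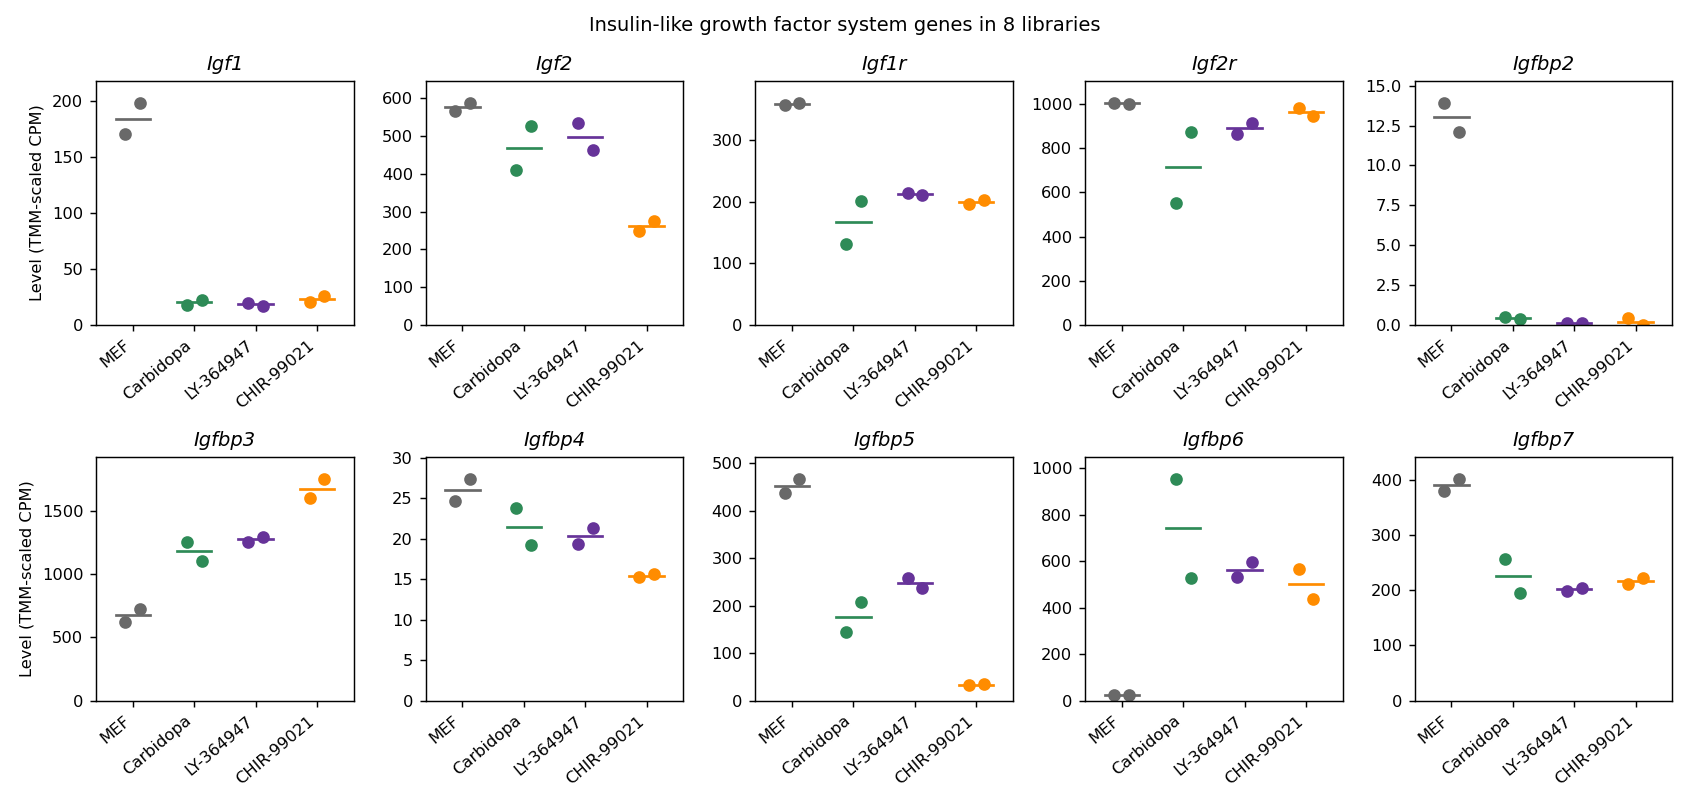
Level of each member in TMM-scaled CPM (vertical axes, each from 0) in the 8 libraries, by group (horizontal axes), with a dot for each library and a line at the mean of 2. Igf1 and Igfbp2 fell to a small part of their MEF level in all 6 treated libraries, Igfbp6 rose from 23.9 and 25.6 CPM in MEFs to at least 438 CPM, and the carbidopa dots of Igf1r, Igf2r and Igfbp6 lie far apart.

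Igf1 (ENSMUSG00000020053, mm10 chr10:87858265-87937042), the ligand with the higher affinity for Igf1r, fell with every treatment. Its levels were 171 and 198 CPM in MEFs, 17.7 and 22.7 CPM with carbidopa, 19.8 and 16.9 CPM with LY-364947, and 20.9 and 25.5 CPM with CHIR-99021. All treated libraries lay far below both MEF libraries, and the carbidopa libraries overlapped those of the other treatments. Igf1 was 9.15-fold lower with carbidopa (log2 fold change -3.19, SE 0.16, edgeR adjusted p = 2.03e-07), 10.1-fold lower with LY-364947 (edgeR adjusted p = 1.75e-07) and 7.96-fold lower with CHIR-99021 (edgeR adjusted p = 2.90e-07). In bulk RNA, fewer cells of a type that makes Igf1 and less Igf1 RNA per cell cannot be told apart.

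Macrophages also make Igf1, and markers of macrophages fell in the same libraries. The summed level of 14 macrophage markers was 1142 and 1184 CPM in MEFs, 351 to 376 CPM with carbidopa, 263 to 267 CPM with LY-364947 and 85.5 to 93.6 CPM with CHIR-99021. Lyz2 was the largest part of this sum, with a mean of 748 CPM in MEFs. Of the 13 that could be tested, 12 were lower with carbidopa, 12 with LY-364947 and all 13 with CHIR-99021. Of all genes tested, 19.7%, 17.2% and 20.1% were lower in the same order. Cx3cr1, named after its values were seen, had 82 and 84 reads in MEFs and at most 3 in treated libraries. It could pass the filter only through MEFs, so a fall was the only call open to it. Macrophage markers were lowest with CHIR-99021, where 11 of 13 were lower than with carbidopa, beside 8.08% of all genes. Igf1 with CHIR-99021 was 1.15 times its level with carbidopa (edgeR adjusted p = 0.445, 95% interval of the log2 difference -0.15 to 0.55). The part of macrophages in the difference between MEFs and treated cells was not tested.

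Other lists moved as well. Of all genes tested, 19.7%, 17.2% and 20.1% were lower and 18.0%, 13.7% and 18.7% higher with carbidopa, LY-364947 and CHIR-99021. The 6 smooth muscle markers summed to 2855 and 3116 CPM in MEFs and 319 to 759 CPM in treated cells, and all 5 that were tested fell with each treatment. Of the 12 fibroblast markers, 8 fell and 2 rose (Pdgfra and Twist2, named after their values were seen) with each treatment. Adipocyte markers summed to 367 and 395 CPM in MEFs and 49.8 to 89.3 CPM in treated cells, mostly from Lpl. Plin1, Cidec and Lep were at 0 throughout. Among the 3 adipocyte markers tested, 2 were lower after carbidopa, 2 after LY-364947 and 1 after CHIR-99021. None was higher. Mean Pparg was 5.45 CPM in MEFs and 5.26 to 7.85 CPM in the treated groups. Mean Fabp4 was 5.85 CPM in MEFs, 1.34 CPM after carbidopa, 1.12 CPM after LY-364947 and 7.17 CPM after CHIR-99021. Endothelial markers summed to 11.5 to 19.6 CPM in all libraries with Cldn5 at 0. Of the 3 that could be tested, 1 was lower after carbidopa, 1 after LY-364947 and 2 after CHIR-99021. Emcn, an endothelial sialomucin, fell with each treatment, from 5.35 and 5.23 CPM in MEFs to between 0.513 and 1.23 CPM. Its log2 fold changes were -2.90, -2.10 and -2.60 for carbidopa, LY-364947 and CHIR-99021. Kdr, the largest part of the endothelial sum, did not follow Emcn. It had 10.3 ± 1.77 CPM in MEFs and 9.51 ± 0.668, 9.64 ± 1.73 and 12.8 ± 1.97 CPM with the treatments in that order (SD, n = 2). Skeletal muscle markers summed to 31.4 and 32.4 CPM in MEFs and 6.51 to 11.5 CPM in treated cells, nearly all from Des. Myod1, Myog, Myf5, Myf6 and Pax7, named after their values were seen, had at most 1 read in any library. The part of these lists in the members' changes was not tested.

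**Figure D3:**
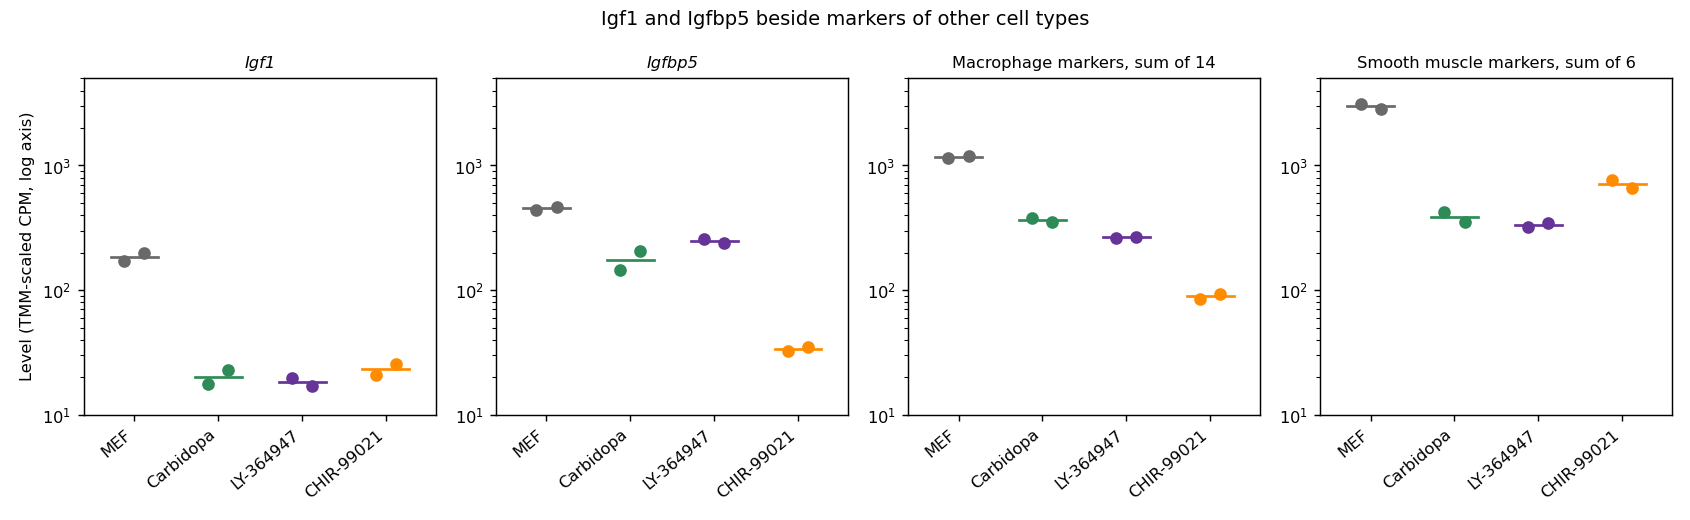
Level of Igf1 and Igfbp5 and summed level of 14 macrophage and 6 smooth muscle markers in TMM-scaled CPM (vertical axes, log scale) in the 8 libraries, by group (horizontal axes), with a dot for each library and a line at the mean of 2. Igf1 lay at 16.9 to 25.5 CPM in all treated libraries, whereas Igfbp5 and the macrophage sum were lowest with CHIR-99021. The smooth muscle sum was lower with carbidopa and LY-364947 (319 to 425 CPM) than with CHIR-99021 (759 and 655 CPM).

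Igf2 (ENSMUSG00000048583, mm10 chr7:142650766-142666816, minus strand) is the fetal ligand and is expressed from the paternal allele. It was the more abundant ligand in every library and fell with CHIR-99021. Its levels were 566 and 587 CPM in MEFs, 409 and 527 CPM with carbidopa, 534 and 463 CPM with LY-364947, and 249 and 275 CPM with CHIR-99021. All treated libraries lay below both MEF libraries, and the CHIR-99021 libraries lay below all others. Igf2 was 2.20-fold lower with CHIR-99021 than in MEFs (log2 fold change -1.14, SE 0.13, edgeR adjusted p = 9.34e-05), 1.78-fold lower than with carbidopa (edgeR adjusted p = 0.00265) and 1.90-fold lower than with LY-364947 (edgeR adjusted p = 0.00149). The differences from MEFs were -0.30 with carbidopa (edgeR adjusted p = 0.0988) and -0.21 with LY-364947 (edgeR adjusted p = 0.267) on the log2 scale. Without carbidopa replicate 2 the first became -0.49 (edgeR adjusted p = 0.00180), and with only LY-364947 and MEF libraries in the fit the second became a call (-0.21, edgeR adjusted p = 0.0320). Per kb of exon, Igf2 made up 83.7% to 85.2% of the ligand level in MEFs and 94.9% to 97.9% in treated cells. In the annotation, the read-through gene Gm49394 covers 62.8% of the exon length of Igf2, and how reads from the shared exons were counted is not known. Gm49394 is not among the genes listed in the count matrix, so it has no counts of its own there and was not analysed. Igf2os, which is listed, shares 98 exon bases with Igf2 on the other strand and had at most 18 reads.

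Genes of the Igf2 locus and regulators of Igf2 or its mRNA moved in both directions. Of 9 listed, 8 were tested, of which 2 rose and 2 fell with carbidopa, 2 rose and 2 fell with LY-364947, and 1 rose and 1 fell with CHIR-99021. The shares of all genes that changed were 37.7%, 31.0% and 38.8%. Hmga2, a chromatin protein that promotes Igf2 transcription, was lower with carbidopa and LY-364947 (log2 fold changes -0.97 and -0.98) and had -0.27 with CHIR-99021 (edgeR adjusted p = 0.143). Igf2bp3, an Igf2 mRNA binding protein, was lower with carbidopa and LY-364947 (-0.59 and -0.38). H19, the maternally expressed non-coding RNA that shares its enhancers with Igf2, lies 72.6 kb from it and had 1287 ± 55.9 CPM in MEFs and 1890 ± 186 CPM with carbidopa (SD, n = 2; log2 fold change 0.55, edgeR adjusted p = 0.00365). With CHIR-99021, H19 was lower than with carbidopa (-0.68, edgeR adjusted p = 0.00329), as Igf2 was. H19 had 1612 ± 135 CPM with LY-364947 and 1176 ± 82.5 CPM with CHIR-99021, and passed the test against MEFs with neither. Igf2 passed it with CHIR-99021 alone, so H19 and Igf2 did not move alike against MEFs. Lin28b, an RNA-binding protein of embryonic cells, had 1 and 2 reads in MEFs, 7 and 10 reads after carbidopa, 13 and 15 reads after LY-364947, and 20 and 12 reads after CHIR-99021. It could pass the filter only through groups where it was high, and it is one of the genes counted as higher with LY-364947 and the one counted as higher with CHIR-99021. Plagl1, an imprinted zinc finger protein named after its values were seen, was higher with carbidopa (0.63) and LY-364947 (0.69) and lower with CHIR-99021 (-0.45, edgeR adjusted p = 0.0487).

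Igf1r (ENSMUSG00000005533, mm10 chr7:67952827-68233668) was lower with every treatment. Its levels were 357 and 360 CPM in MEFs, 132 and 201 CPM with carbidopa, 214 and 211 CPM with LY-364947, and 196 and 202 CPM with CHIR-99021. No treated library reached the MEF level, and carbidopa replicate 1 was the lowest. Igf1r was 2.15-fold lower with carbidopa (log2 fold change -1.11, SE 0.16, edgeR adjusted p = 0.000430), 1.69-fold lower with LY-364947 (edgeR adjusted p = 0.00481) and 1.80-fold lower with CHIR-99021 (edgeR adjusted p = 0.00217).

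Igf2r (ENSMUSG00000023830, mm10 chr17:12682406-12769664, minus strand) had the smallest differences from MEFs of all members with LY-364947 and CHIR-99021. Its levels were 1004 and 1003 CPM in MEFs, 554 and 873 CPM with carbidopa, 866 and 915 CPM with LY-364947, and 982 and 947 CPM with CHIR-99021. The groups other than carbidopa lay close together. Igf2r was 1.41-fold lower with carbidopa (log2 fold change -0.49, SE 0.17, edgeR adjusted p = 0.0448), but this rested on carbidopa replicate 1, without which the change was -0.20 (edgeR adjusted p = 0.0634). The call was also lost without MEF replicate 1 (edgeR adjusted p = 0.153), without MEF replicate 2 (edgeR adjusted p = 0.161) or with only the 2 groups in the fit (edgeR adjusted p = 0.109). With LY-364947 and CHIR-99021 the 95% intervals of the log2 difference from MEFs were -0.55 to 0.21 and -0.44 to 0.32. With only LY-364947 and MEF libraries in the fit, the difference of -0.17 became a call (edgeR adjusted p = 0.0410). Airn, the antisense RNA that starts inside Igf2r and shares no exon bases with it, had 101 reads in carbidopa replicate 1 and 133 to 306 reads in the other libraries, and it did not pass the test in any comparison. Per kb of exon, Igf2r stood at 5.02 to 5.07 times Igf1r in MEFs and at 7.30 to 9.03 times Igf1r in treated cells. The insulin receptor Insr, the relative of Igf1r, had 123 ± 1.77 CPM in MEFs and 135 ± 35.6, 160 ± 9.33 and 129 ± 8.24 CPM with carbidopa, LY-364947 and CHIR-99021 (SD, n = 2), and passed the test in none of the comparisons.

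Downstream of the receptors, 26 of 27 listed signalling genes were tested. With carbidopa 3 rose and 7 fell, with LY-364947 2 rose and 3 fell, and with CHIR-99021 3 rose and 4 fell, beside the 37.7%, 31.0% and 38.8% of all genes that changed in these comparisons. Irs2, an adaptor of the IGF and insulin receptors, rose with each treatment (log2 fold changes 0.82, 0.98 and 1.04 for carbidopa, LY-364947 and CHIR-99021). Pik3r1, the regulatory subunit of PI3K, fell with each (-1.05, -0.78 and -1.32). Rps6kb1, the S6 kinase, fell with each as well (-0.46, -0.40 and -0.35). Named after their values were seen, Foxo4 was the other gene that rose with LY-364947, Foxo4 and Eif4ebp1 the others with carbidopa, and Pik3cb and Rptor the others with CHIR-99021.

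The binding proteins split into 2 that rose and the rest. Igfbp6 (ENSMUSG00000023046, mm10 chr15:102144362-102149511), which prefers Igf2 to Igf1, rose the most of all members. Its levels were 23.9 and 25.6 CPM in MEFs (322 and 396 reads), 954 and 529 CPM with carbidopa, 530 and 596 CPM with LY-364947, and 565 and 438 CPM with CHIR-99021. All treated libraries lay far above MEFs, and the treated groups overlapped. Igfbp6 was 29.9-fold higher with carbidopa (log2 fold change 4.90, SE 0.27, edgeR adjusted p = 4.19e-07), 22.7-fold higher with LY-364947 (edgeR adjusted p = 7.35e-07) and 20.3-fold higher with CHIR-99021 (edgeR adjusted p = 7.94e-07). Over 10 alternative settings the log2 fold change with carbidopa lay between 4.42 and 5.27.

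Igfbp3 (ENSMUSG00000020427, mm10 chr11:7206086-7213923, minus strand), the main carrier of IGFs in blood, was already abundant in MEFs. Its levels were 623 and 726 CPM in MEFs, 1253 and 1107 CPM with carbidopa, 1253 and 1297 CPM with LY-364947, and 1599 and 1753 CPM with CHIR-99021. The libraries of each treatment lay above MEFs, and those of CHIR-99021 lay above all others. Igfbp3 was 1.75-fold higher with carbidopa (log2 fold change 0.81, SE 0.11, edgeR adjusted p = 0.000351), 1.89-fold higher with LY-364947 (edgeR adjusted p = 0.000144) and 2.48-fold higher with CHIR-99021 (edgeR adjusted p = 1.12e-05). Its neighbour Igfbp1, which lies 3539 bases away and is made by hepatocytes, had no more than 1 read in any library.

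Igfbp5 (ENSMUSG00000026185, mm10 chr1:72857932-72874884, minus strand), which binds extracellular matrix, fell with every treatment and most with CHIR-99021. Its levels were 439 and 467 CPM in MEFs, 144 and 208 CPM with carbidopa, 258 and 237 CPM with LY-364947, and 32.1 and 34.6 CPM with CHIR-99021. The 4 groups did not overlap. Igfbp5 was 2.58-fold lower with carbidopa (log2 fold change -1.37, SE 0.15, edgeR adjusted p = 6.91e-05), 1.83-fold lower with LY-364947 (edgeR adjusted p = 0.00144) and 13.6-fold lower with CHIR-99021 (log2 fold change -3.76, SE 0.17, edgeR adjusted p = 1.02e-07). Against the other treatments, CHIR-99021 had 5.27-fold less Igfbp5 than carbidopa (edgeR adjusted p = 1.65e-05) and 7.41-fold less than LY-364947 (edgeR adjusted p = 6.89e-06).

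Igfbp2 (ENSMUSG00000039323, mm10 chr1:72824503-72852474) is the neighbour of Igfbp5 on chromosome 1, on the opposite strand and 5457 bases away. It had 187 and 188 reads in MEFs, 10 and 8 reads with carbidopa, 2 and 2 reads with LY-364947, and 7 and 0 reads with CHIR-99021. In CPM these were 13.9 and 12.1 in MEFs and at most 0.471 in treated cells, where too few reads remained to order the treatments. The pooled MEF level was 30.7 times that with carbidopa (95% interval 19.2 to 52.4), 119 times that with LY-364947 (45.9 to 437) and 64.0 times that with CHIR-99021 (30.8 to 160). These exact intervals cover counting error only, since reads are not independent molecules. The edgeR adjusted p of the falls was 1.16e-05, 6.40e-06 and 8.65e-06. Since Igfbp2 passed the filter on low counts only through MEFs, no rise could be called, and these values add no support. Without CHIR-99021 replicate 1 the remaining library held 0 reads, so the fold fitted from it (log2 fold change -10.86) is no measure of size. Both neighbours fell with every treatment, yet Igfbp5 kept 3060 to 4590 reads with carbidopa and LY-364947, where Igfbp2 had 2 to 10.

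Igfbp7 (ENSMUSG00000036256, mm10 chr5:77349240-77408041, minus strand), a secreted protein with low affinity for IGFs, was lower with every treatment to a like extent. Its levels were 381 and 402 CPM in MEFs, 257 and 195 CPM with carbidopa, 198 and 205 CPM with LY-364947, and 211 and 223 CPM with CHIR-99021. No treated library reached the MEF level. Igfbp7 was 1.73-fold lower with carbidopa (edgeR adjusted p = 0.000858), 1.94-fold lower with LY-364947 (edgeR adjusted p = 0.000256) and 1.80-fold lower with CHIR-99021 (edgeR adjusted p = 0.000518). It shares 85 exon bases with Polr2b on the other strand, and whether the counting used strand is not stated.

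Igfbp4 (ENSMUSG00000017493, mm10 chr11:99041244-99054392), an inhibitor of IGF action that Pappa cuts, was the least abundant member per kb of exon in MEFs. Its levels were 24.7 and 27.4 CPM in MEFs, 23.8 and 19.3 CPM with carbidopa, 19.4 and 21.4 CPM with LY-364947, and 15.3 and 15.7 CPM with CHIR-99021. Treated libraries lay below MEFs, with CHIR-99021 lowest. Igfbp4 was 1.69-fold lower with CHIR-99021 (log2 fold change -0.75, SE 0.14, edgeR adjusted p = 0.00197). The log2 differences with carbidopa and LY-364947 were -0.28 (edgeR adjusted p = 0.136) and -0.35 (edgeR adjusted p = 0.0780). Without carbidopa replicate 1 the former was -0.44 (edgeR adjusted p = 0.0229), and with only the 2 groups in the fit the latter became a call (-0.35, edgeR adjusted p = 0.0134).

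The make-up of the binding protein transcripts changed with these shifts. Per kb of exon, Igfbp7 made up 49.9% ± 1.12 (SD, n = 2) of the summed level of the 6 binding proteins in MEFs, followed by Igfbp3 with 33.1% ± 1.53 and Igfbp5 with 11.6% ± 0.192, while Igfbp6 had 3.43% ± 0.0535. With carbidopa Igfbp6 led with 51.7% ± 7.72, and with LY-364947 it led with 44.9% ± 1.58. With CHIR-99021 Igfbp3 (45.6% ± 4.48) and Igfbp6 (38.3% ± 5.60) came first, and the Igfbp5 share was 0.474% ± 0.0409. Igfbp7 held 14.8% to 15.3% on average in the treated groups. Relative to the summed ligands per kb, the summed binding proteins stood at 5.36 and 5.53 in MEFs and between 10.9 and 26.3 in treated libraries. These ratios are descriptions of transcript levels and were not tested.

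**Figure D4:**
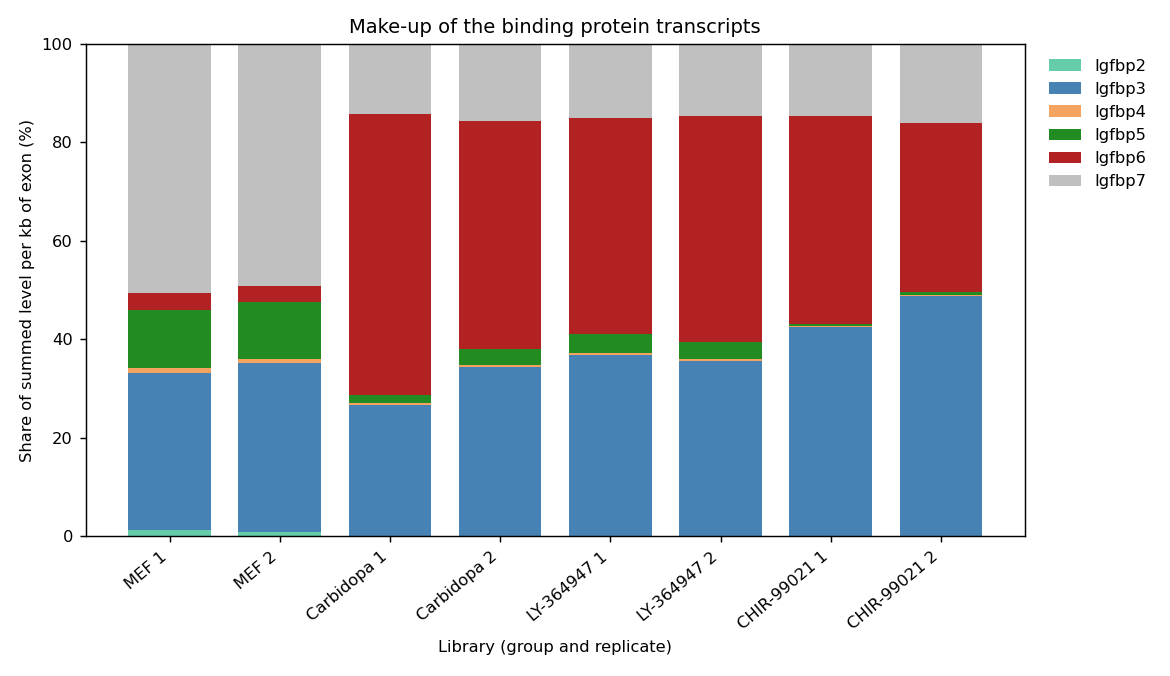
Share of each of the 6 binding proteins in their summed level per kb of exon (vertical axis, %) in each of the 8 libraries (horizontal axis, group and replicate). Igfbp7 took the largest share in both MEF libraries, Igfbp6 in both carbidopa and both LY-364947 libraries, and Igfbp3 and Igfbp6 together filled most of the bar in the 6 treated libraries.

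Levels per kb of exon ordered the members differently in MEFs and in treated cells. In MEFs the order was Igfbp7 (324 CPM per kb), Igfbp3 (216), Igf2r (108), Igf2 (101), Igfbp5 (75.4), Igfbp6 (22.3), Igf1r (21.4), Igf1 (18.6), Igfbp2 (7.05) and Igfbp4 (5.90). Igfbp6 and Igf1r did not differ beyond their spread there. With carbidopa Igfbp6 (667 ± 270 CPM per kb, SD, n = 2) stood above Igfbp3 (377 ± 33.2), and with CHIR-99021 Igfbp3 (535 ± 34.9) stood above Igfbp6 (451 ± 80.7), where the highest Igfbp6 library (508) and the lowest Igfbp3 library (511) nearly met.

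Proteases that cut the binding proteins were listed together with inhibitors of these proteases. Of 8 genes listed, 7 were tested, of which 1 rose and 4 fell with carbidopa, 1 rose and 4 fell with LY-364947, and 1 rose and 3 fell with CHIR-99021, where 37.7%, 31.0% and 38.8% of all genes changed. The inhibitor Stc2 is among those that fell each time. Pappa, which cuts Igfbp4 and Igfbp5, had 283 and 304 CPM in MEFs, 40.1 and 71.3 CPM with carbidopa, 80.3 and 77.9 CPM with LY-364947, and 158 and 169 CPM with CHIR-99021. Pappa2, its relative that cuts Igfbp3 and Igfbp5, had 7.73 and 8.19 CPM in MEFs, 52.3 and 95.5 CPM with carbidopa, 104 and 106 CPM with LY-364947, and 14.3 and 17.4 CPM with CHIR-99021. Pappa was thus lower and Pappa2 higher in every treated library than in MEFs. The log2 fold changes of Pappa were -2.40 with carbidopa (SE 0.21, edgeR adjusted p = 1.20e-05), -1.89 with LY-364947 and -0.84 with CHIR-99021 (edgeR adjusted p = 0.00793). Those of Pappa2 were 3.21 with carbidopa (SE 0.26, edgeR adjusted p = 6.51e-06), 3.72 with LY-364947 and 0.99 with CHIR-99021 (edgeR adjusted p = 0.0154). CHIR-99021 differed from the other treatments in both genes, with Pappa higher by 1.55 and 1.05 and Pappa2 lower by a log2 difference of -2.22 and -2.73 against carbidopa and LY-364947.

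Adam12, a metalloprotease that cuts Igfbp3 and Igfbp5, had 59.6 and 52.8 CPM in MEFs, 13.7 and 18.1 CPM with carbidopa, 19.6 and 18.1 CPM with LY-364947, and 49.1 and 47.7 CPM with CHIR-99021. It fell with carbidopa (log2 fold change -1.82) and LY-364947 (-1.57), and had -0.21 with CHIR-99021 (edgeR adjusted p = 0.240). Htra1, a serine protease that cuts Igfbp5, fell with each treatment (-0.69, -0.42 and -0.50 for carbidopa, LY-364947 and CHIR-99021). Stc2, an inhibitor of Pappa named after its values were seen, fell with each as well (-0.60, -0.77 and -0.90).

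**Figure D5:**
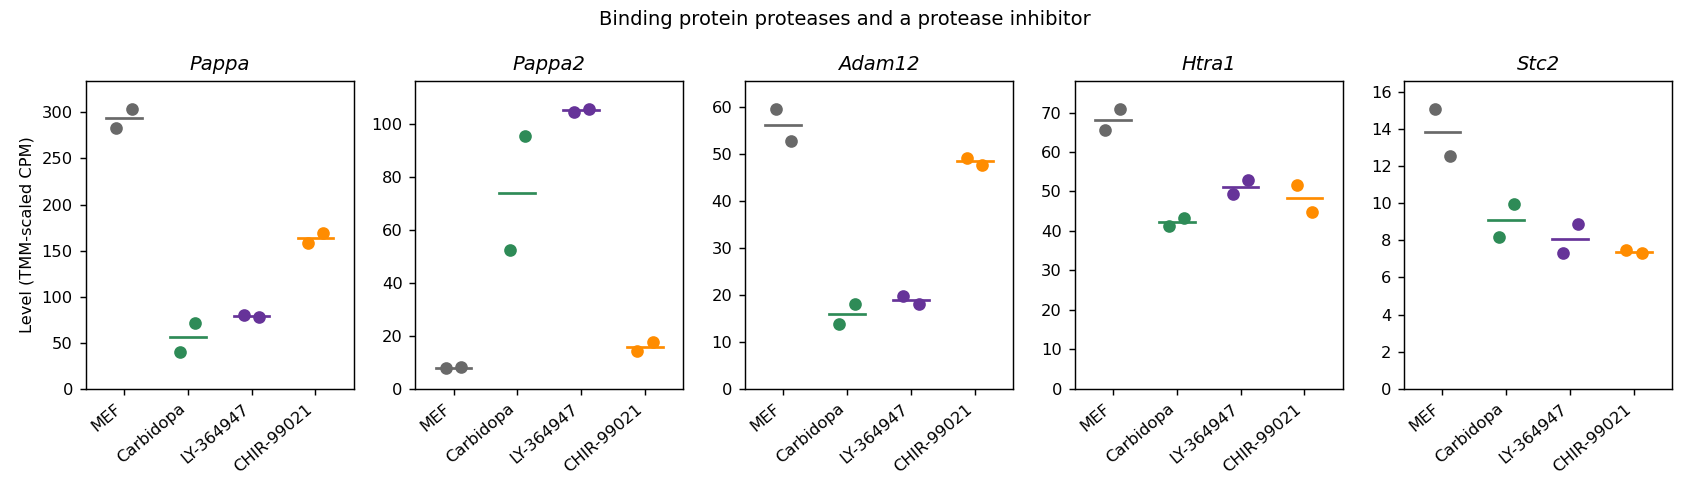
Level of Pappa, Pappa2, Adam12, Htra1 and Stc2 in TMM-scaled CPM (vertical axes, each from 0) in the 8 libraries, by group (horizontal axes), with a dot for each library and a line at the mean of 2. Pappa2 lay near 8 CPM in MEFs, at 14.3 and 17.4 CPM with CHIR-99021 and at 52.3 to 106 CPM with the other treatments, while Pappa was highest in MEFs, next with CHIR-99021 and lowest with the others.

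Comparisons between treatments, all at 10 µM, asked whether the members separated them. LY-364947 and carbidopa gave 0 changed members of 10, beside 0.0132% of all genes (2 of 15154). At an unadjusted p under 0.05 there were 1 member, Igfbp5, and 1367 genes, and DESeq2 also called 0 members. The 95% intervals of the log2 difference, LY-364947 minus carbidopa, were -0.49 to 0.22 for Igf1, -0.20 to 0.38 for Igf2, -0.14 to 0.36 for Igfbp3 and 0.16 to 0.83 for Igfbp5. Without carbidopa replicate 2, more members passed the test. The ranges with a library left out are given in the closing section, for members and for all genes.

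CHIR-99021 differed from carbidopa in 4 of 10 members, 1 higher and 3 lower, beside 14.7% of all genes (6.62% higher and 8.08% lower). It differed from LY-364947 in 3 of 10, 1 higher and 2 lower, beside 14.1% of all genes (6.45% higher and 7.69% lower). Igf2 and Igfbp5 were lower than with both other treatments, with the values given above. Igfbp3 was higher than with carbidopa (log2 difference 0.51, edgeR adjusted p = 0.0150) and LY-364947 (0.39, edgeR adjusted p = 0.0437). Igfbp4 was lower than with carbidopa (-0.48, edgeR adjusted p = 0.0456). The Igfbp3 difference from LY-364947 did not pass when any of the 4 libraries was left out (edgeR adjusted p = 0.120 to 0.269), and that of Igfbp4 from carbidopa was -0.31 without carbidopa replicate 1 (edgeR adjusted p = 0.123). Without carbidopa replicate 2, more members differed between CHIR-99021 and carbidopa, and without CHIR-99021 replicate 2 fewer did. The closing section gives these ranges beside those of all genes.

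For the 4 members whose group means spread most, the 2 genes with the most similar course, among those tested with a mean of at least 100 counts (10461, or 10462 for Igfbp2, which is itself below that mean), over the 8 libraries were found by the root mean square difference of log2 CPM after each gene's mean was removed. Igf1 was followed most closely by Gfra1, a GDNF co-receptor (0.141), and Entpd1, an ectonucleotidase (0.147). Igfbp5 was followed by Abi3bp, a matrix protein (0.135), and Stab1, a scavenger receptor (0.268). Igfbp6 had Spon2, a matrix protein (0.315), and Esm1, a secreted proteoglycan (0.340). For Igfbp2 the values were 0.750 for Lrrc17 and 0.766 for Chl1. The distances are in log2 units, and the libraries of a group share their treatment, so they describe the course only.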

How the data were processed

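RNA-seq reads were mapped by the authors to mm10 with STAR 2.4.2a and counted on genes with featureCounts, and the whole-number counts were deposited without normalization. The annotation release and the use of strand are not given in the sources used here, and the labels and methods name different library kits. The counts were analysed in R 4.3.3 with edgeR 4.0.16 (TMM, filterByExpr, a quasi-likelihood test, 1 fit of all 8 libraries by group, two-sided, Benjamini-Hochberg adjustment over 15154 genes, threshold 0.05). The coefficient of biological variation was 11.0%. Of the gene identifiers, 99.6% were found in GENCODE M21, which gave positions and merged exon lengths. Groups came from the sample labels. All members were named. From lists of IGF family genes, binding protein proteases, receptor signalling, Igf2 regulators and markers of fibroblasts, macrophages, smooth and skeletal muscle, endothelium, hepatocytes and adipocytes, up to 4 genes with the smallest p against MEFs could be named, with exceptions stated where they occur. Some genes of the receptor signalling list are counted but not reported here by name. The members and lists were chosen with earlier results of these data known. Alternatives were DESeq2 1.42.0, RLE size factors, no filter, a minimum of 10 counts in each library, a fit of only the 2 compared groups, a replicate block and each library of a comparison left out. The code was tested on simulated data. No replicate pair was 1 library deposited again, since each differed by more than sampling noise.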

Additional observations from a re-analysis of the deposited data

How the results depend on the processing

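Against MEFs, the counts of members changed under the alternatives other than leaving out a library stayed within 1.5 times those reported, as did the counts of all genes. Igfbp2 could not be tested with at least 10 counts in every library. Between treatments, the 2 compared groups alone gave 2 members and 1027 genes for CHIR-99021 against carbidopa (reported 4 and 2227) and 3673 genes for CHIR-99021 against LY-364947 (reported 2143). For LY-364947 against carbidopa, DESeq2 gave 13 genes, the 2 groups alone 0, and no filter 329 genes and 2 members, Igfbp5 and Igfbp6. The causes were not tested.

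Leaving out each library of a comparison in turn, with the lone library assumed to vary like the other groups, gave 3142 to 7996 genes for carbidopa against MEFs, 2841 to 3095 for LY-364947, 3433 to 4709 for CHIR-99021, 2 to 3816 for LY-364947 against carbidopa, 715 to 4632 for CHIR-99021 against carbidopa and 663 to 1200 for CHIR-99021 against LY-364947. Members changed numbered 7 to 9, 7 to 7, 9 to 9, 0 to 5, 2 to 8 and 2 to 2 in that order. No difference from MEFs turned direction under any alternative run. Among differences between treatments, 9 that had not passed the test turned direction in 11 fits with a library left out. Their log2 differences then ranged, for LY-364947 against carbidopa, from -0.31 to 0.053 for Igf1 (positive without carbidopa replicate 2), from -0.082 to 0.28 for Igf2 (negative without carbidopa replicate 1, and -0.0097 without LY-364947 replicate 1), from -0.22 to 0.081 for Igfbp4 (positive without carbidopa replicate 1, and 0.00033 without LY-364947 replicate 1), and from -0.76 to 0.087 for Igfbp6 and -0.35 to 0.050 for Igfbp7 (positive without carbidopa replicate 1). For CHIR-99021 against carbidopa they ranged from -0.0082 to 0.60 for Igf1r (negative) and -0.24 to 0.16 for Igfbp7 (positive), each time without carbidopa replicate 1. For CHIR-99021 against LY-364947 they ranged from -0.36 to 0.012 for Igfbp6 (positive without CHIR-99021 replicate 2) and -4.06 to 1.82 for Igfbp2 (negative without CHIR-99021 replicate 1, with 0 reads left).

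Samples with the same replicate number did not deviate together in all comparisons (correlations from -0.416 to 0.336 over 10462 genes), so the numbers as given do not pair all groups. The negative correlations were those of LY-364947 with each other group (-0.0973, -0.319 and -0.416 with MEFs, carbidopa and CHIR-99021). A pairing under another numbering was not tested. With the replicate number as a block, 8, 7 and 9 members differed from MEFs with carbidopa, LY-364947 and CHIR-99021. The counts of all genes stayed within 1.5 times those reported, which were 37.7%, 31.0% and 38.8% of the genes tested. The block ended the calls of Igfbp3 for CHIR-99021 against LY-364947 (edgeR adjusted p = 0.0608) and Igfbp4 for CHIR-99021 against carbidopa (edgeR adjusted p = 0.0632) and no other call among the members. With 2 libraries a group, small differences between treatments may have been missed, and the smallest detectable difference was not worked out. For Igfbp2 the counts in treated cells limit any ordering.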
